A study of Homo sapiens with 24 samples.

Results

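The Acetalax response of LNCaP CE cells was set against that of LNCaP parental cells, gene by gene. LNCaP is an established human prostate cancer cell line that grows as androgen-dependent luminal epithelium. CE (chronic exposure) stands for a derivative that, per the labels, was raised from parental cells by stepwise increases of the drug over many passages until it was resistant. The measure is the difference of responses: the log2 change from control to Acetalax in CE cells minus the same log2 change in parental cells. A positive value means that the response of CE cells was the more positive. All 12 LNCaP libraries of the 24 in the series were used, 3 in each of 4 groups. Parental control cells received no drug, and parental Acetalax cells received 10 µM for 4 h. CE control and CE Acetalax cells differed in the same way, and CE cells were kept without drug for 2 weeks before RNA was extracted. Both kinds of cells are described as grown in RPMI-1640 with 10% serum. The labels do not say whether the CE derivative is 1 clone or a pool. Of 60660 features, 19393 passed the low-count filter and were tested.

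Acetalax, also known as oxyphenisatin acetate, was formerly used as a laxative and is studied here because it kills cells with high levels of TRPM4, a sodium-permeable cation channel opened by intracellular calcium. Within hours, a cell under chemical or ionic stress can switch on immediate early genes (JUN, EGR1, and the targets of the serum response factor SRF), heat shock chaperones under the factor HSF1, sterol synthesis genes under SREBP2, and the inhibitors that end NF-kB signalling. In an established cell line MYC, the growth regulator, has a short-lived mRNA and protein, so its level can follow a change in transcription quickly.

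Library totals ran from 43440476 to 57728014 expected counts. The libraries labelled LNCaP CE did not carry the markers of luminal prostate epithelium: the summed level of that list was 6215 to 9227 TPM (transcript level scaled for gene length and library size) in parental controls and 20.4 to 24.3 TPM in CE controls. Mean KLK3 was 4399 TPM in parental controls and 0.78 TPM in CE controls, and mean HOXB13, a homeobox factor of the prostate, was at 258 and 0.48 TPM. The fibroblast list was at 9.43 to 23.5 TPM in parental controls and at 1466 to 1568 TPM in CE controls, with COL1A2 at 0.66 and 276 TPM, but COL1A1 at 16.2 and 12.2 TPM and PDGFRA at 0.03 and 1.51 TPM. Across all genes, 14595 of 19393 differed between CE and parental controls. In bulk RNA, fewer cells of a type and less RNA per cell cannot be told apart, and the part of these different starting levels in any difference of responses was not tested. Whether the libraries labelled LNCaP CE derive from LNCaP could not be checked from expression levels, and the labels were followed.

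Parental control 2 and parental Acetalax 3 stood apart from the other parental libraries. VEGFA, a hypoxia-induced growth factor, was at 53.9 TPM in parental control 2 and 76.2 TPM in parental Acetalax 3, against 513 to 746 TPM in the other 4 parental libraries. NDRG1, another hypoxia target, was at 52.4 and 42.4 TPM against 443 to 681 TPM. DDIT3, a stress-induced transcription factor, was at 26.4 and 51.4 TPM against 231 to 341 TPM. In CE Acetalax 3 NDRG1 was at 12 TPM, against 0.18 to 0.63 TPM in the other CE libraries. PCNA, the sliding clamp of DNA replication, differed the other way, at 348 and 337 TPM against 112 to 161 TPM. Since 1 of these libraries is a control and 1 is treated, they widen the spread of both parental groups. Each gene had 1 estimate of spread for all groups, so they also widen the error of the CE response. Its median standard error was 0.22 with 12 libraries and 0.098 with 10, although the CE libraries were the same. A CE response that did not pass with 12 libraries is therefore not a lack of response. Counts are therefore also given for the 10 libraries that remain without them, in which parental groups have 2 libraries each, as are values of several genes.

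**Figure D1:**
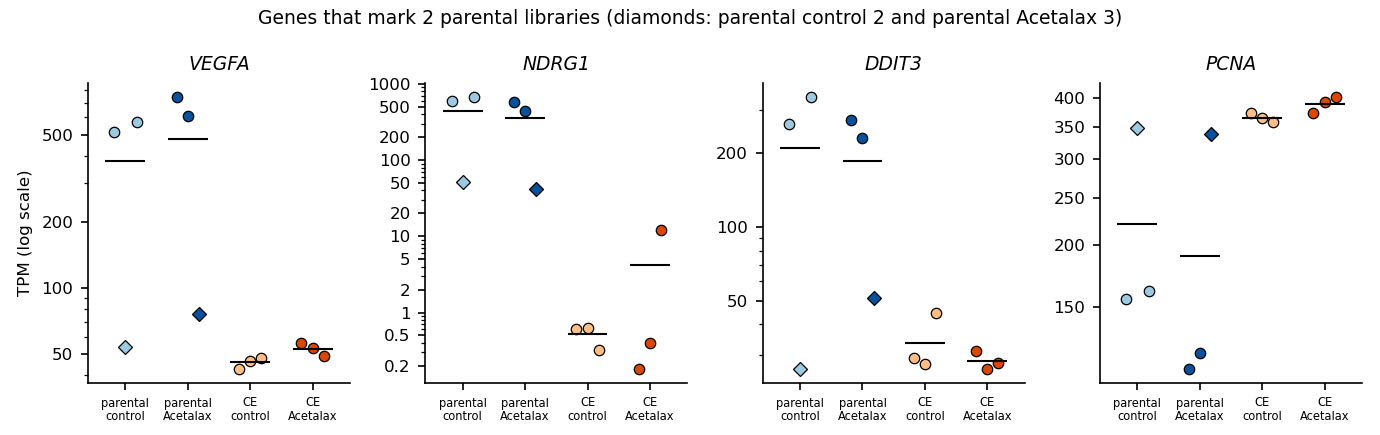
Levels of VEGFA, NDRG1, DDIT3 and PCNA in TPM on a log scale, 1 point per library in each of the 4 groups, with lines at the mean of 3. Parental control 2 and parental Acetalax 3 (diamonds) lie below the other parental libraries for VEGFA (53.9 and 76.2 TPM) and above them for PCNA (348 and 337 TPM).

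Between the 12 libraries, 249 of 19393 genes differed in response between CE and parental cells (edgeR's quasi-likelihood test, adjusted p under 0.05, 1.28% of the genes tested). In 113 of them (0.583%) the CE response was the more positive and in 136 (0.701%) the more negative, and in 98 the 2 responses were at least 2-fold apart. Each response on its own was called for more genes: 1639 (8.45%) in parental cells, where 783 rose (4.04%) and 856 fell (4.41%), and 1436 (7.40%) in CE cells, where 648 rose (3.34%) and 788 fell (4.06%). The median difference of responses over all genes was 0.02 on the log2 scale. With a median standard error of 0.33, small differences were not detectable in these libraries. At an unadjusted p under 0.05, 2421 genes differed.

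Without parental control 2 and parental Acetalax 3, the count of genes whose responses differed was 3837 of 19832 (19.3%), of which 1789 were more positive and 2048 more negative in CE cells. The median standard error was then 0.18. All 249 genes called from 12 libraries were called again, with the same sign. The 10 libraries are part of the 12, so this is no separate test of those genes. The single responses were called for 5280 genes (26.6%) in parental cells and 6763 (34.1%) in CE cells. The count also depended on single libraries of the 12: it was 552 without parental control 2 and 811 without parental Acetalax 3, but 111 without parental control 1, 135 without parental Acetalax 1, 119 without parental Acetalax 2, and 79 to 82 without any 1 of the 6 CE libraries. It was 178 without parental control 3.

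The 249 genes fell into kinds by which response was itself called. For 126 genes only the parental response passed the test: 68 rose and 58 fell in parental cells. For 81 genes only the CE response passed, with 41 that rose and 40 that fell. In 25 genes both passed in opposite directions, and in 16 both passed in the same direction with unequal size. The remaining gene was VPS18, a subunit of the complexes that tether vesicles to lysosomes, for which neither response passed alone. The kinds depend on the fit: parental only made up 50.6% with 12 libraries and 30.7% (1178 genes) with 10. Of the other genes called with 10 libraries, 1385 (36.1%) were CE only and 517 (13.5%) passed in opposite directions. Both passed in the same direction in 618 (16.1%), and neither in 139 (3.62%). In 40 of the 249 genes the mean level was below 1 TPM in both groups of at least 1 kind of cell: 17 in CE cells, 17 in parental cells and 6 in both. A log2 change of such a gene rests on few reads.

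**Figure D2:**
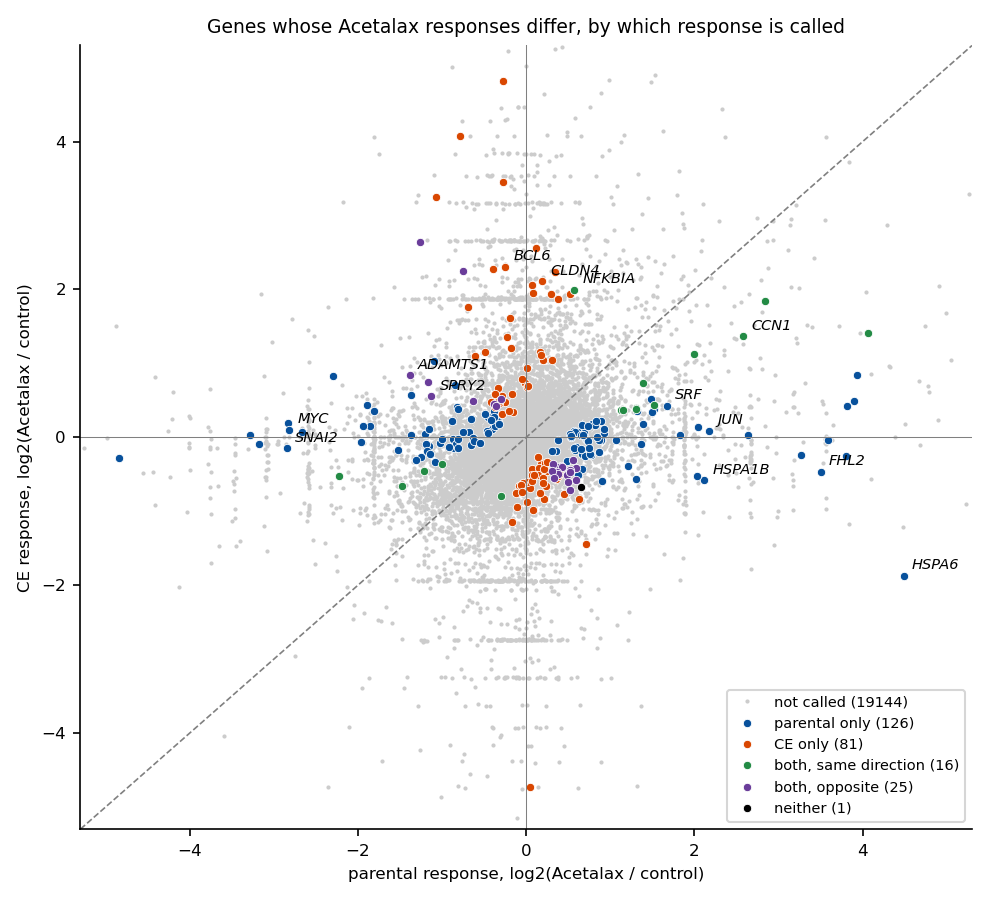
Parental response (x axis) against CE response (y axis), both as log2(Acetalax / control), 1 point per gene, coloured by which response was called among the 249 genes whose responses differ; the dashed line marks equal responses. HSPA6, FHL2 and JUN lie to the right near or below 0 on the y axis, MYC and SNAI2 to the left, BCL6 and CLDN4 at the top; 37 genes, 3 of them called, lie outside the axes of 5.3 in either direction.

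The sequences just before the start of 4 of the genes with stronger parental induction are shown because 2 of them are textbook heat shock genes and 2 carry the element that SRF binds. They are the 250 bases before the RefSeq start, on GRCh38.p14, 5′ to 3′ on the gene's strand. Capitals mark matches to the heat shock element searched (GAANNTTC or TTCNNGAA, both strands) in HSPA6 and HSPA1B, and to the CArG box of SRF in SRF and FHL2.
HSPA6 (chr1:161524290-161524539, plus strand): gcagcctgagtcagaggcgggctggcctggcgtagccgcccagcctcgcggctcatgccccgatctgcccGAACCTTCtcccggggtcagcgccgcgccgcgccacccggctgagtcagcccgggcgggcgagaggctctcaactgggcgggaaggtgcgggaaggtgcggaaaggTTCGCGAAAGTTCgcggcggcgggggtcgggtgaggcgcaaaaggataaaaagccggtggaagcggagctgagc
HSPA1B (chr6:31827488-31827737, plus strand): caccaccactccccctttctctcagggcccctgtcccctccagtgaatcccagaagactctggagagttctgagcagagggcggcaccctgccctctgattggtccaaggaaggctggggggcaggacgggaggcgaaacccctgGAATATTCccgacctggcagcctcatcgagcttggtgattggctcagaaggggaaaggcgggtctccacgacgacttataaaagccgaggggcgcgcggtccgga
SRF (chr6:43171019-43171268, plus strand): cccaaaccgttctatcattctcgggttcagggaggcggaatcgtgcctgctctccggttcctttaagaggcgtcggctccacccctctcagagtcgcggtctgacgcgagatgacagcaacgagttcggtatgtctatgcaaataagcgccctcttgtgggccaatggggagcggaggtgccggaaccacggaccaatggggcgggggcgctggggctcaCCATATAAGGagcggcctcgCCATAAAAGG
FHL2 (chr2:105438514-105438763, minus strand, 1 of 4 start windows of the gene): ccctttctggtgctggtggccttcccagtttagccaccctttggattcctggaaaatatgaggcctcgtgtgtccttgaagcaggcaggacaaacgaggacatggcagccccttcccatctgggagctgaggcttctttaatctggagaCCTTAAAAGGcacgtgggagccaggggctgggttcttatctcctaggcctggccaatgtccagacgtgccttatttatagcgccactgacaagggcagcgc
The matches in HSPA6 began 180, 74 and 69 bases before the start, the last pair overlapping, and the match in HSPA1B began 105 bases before it. In SRF, shown for 1 of its 2 start windows, the matches began 30 and 10 bases before that start. In FHL2 the match began 101 bases before the start shown.

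The chaperones HSPA6, HSPA1B and DNAJB1 rose in parental cells, mainly in 2 of the 3 treated libraries, and no CE response of these 3 passed with 12 libraries. HSPA6 (chromosome 1, 161524540 to 161526910, plus strand, GENCODE 29 on GRCh38) encodes an HSP70 that most cells make only under stress. It stood at 0.32, 0.72 and 0.77 TPM in parental controls 1 to 3 and at 20.8, 18.8 and 0.7 TPM in parental Acetalax 1 to 3. In CE controls it was at 3.98, 3.9 and 3.76 TPM and in CE Acetalax libraries at 1.07, 0.78 and 1.04 TPM. Parental Acetalax 3 was thus at the control level, and every CE control was above every CE Acetalax library. The parental response was 4.49 ± 0.89 (log2, SE, n = 3 libraries a group, adjusted p = 0.0106 by edgeR), the CE response was -1.87 ± 0.81 (adjusted p = 0.217 by edgeR), and the difference of responses was -6.36 ± 1.19 (adjusted p = 0.0318 by edgeR). The 10 libraries leave out parental Acetalax 3, the treated parental library in which HSPA6 did not rise. With them the difference was -7.13 ± 0.26 (adjusted p = 2.43e-10 by edgeR), and the fall in CE cells also passed (adjusted p = 5.3e-07). These values are thus no firmer support than those of the 12 libraries.

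HSPA1B (chromosome 6, 31827735 to 31830255), the major inducible HSP70, was at 131, 120 and 124 TPM in parental controls and at 784, 644 and 149 TPM in parental Acetalax libraries. CE controls were at 91.3, 92.6 and 83.3 TPM and CE Acetalax libraries at 55.6, 54.7 and 52 TPM. The groups did not overlap in either kind of cell, but they moved in opposite directions, and parental Acetalax 3 lay close to the controls. The difference of responses was -2.70 ± 0.56 (adjusted p = 0.0474). With 10 libraries, which leave out parental Acetalax 3, it was -3.15 ± 0.10 (adjusted p = 7.09e-11), and the fall in CE cells passed (adjusted p = 8.88e-06). HSPA1B is nearly identical to HSPA1A, between which RSEM divides reads by estimation, so the level of each alone is uncertain. Both HSP70 calls were lost when any 1 library other than parental control 2 and parental Acetalax 3 was left out (adjusted p 0.0700 to 0.114 for HSPA6 and 0.0981 to 0.135 for HSPA1B).

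DNAJB1, the co-chaperone that delivers substrates to HSP70, was at 48.8, 64.7 and 50.5 TPM in parental controls, 231, 189 and 67.6 TPM in parental Acetalax libraries, 141, 141 and 130 TPM in CE controls and 103, 105 and 103 TPM in CE Acetalax libraries. Its difference of responses was -1.91 ± 0.44 and missed the threshold (adjusted p = 0.0694). With 10 libraries, which leave out parental Acetalax 3, it passed at -2.47 ± 0.10 (adjusted p = 1.03e-09). BAG3, which releases substrates from HSP70, gave -0.54 ± 0.20 (adjusted p = 0.259) and, with 10 libraries, -0.84 ± 0.08 (adjusted p = 5.52e-06). Over the 24 measured members of the heat shock list, 0 were called with a more positive and 2 with a more negative CE response (all genes: 0.583% and 0.701%). Their median difference was -0.16, against 0.02 for all genes. DESeq2 called 3 members and limma on log2(TPM + 1) called 0 (all genes: 6.32% and 2.48%). In edgeR 6 had an unadjusted p under 0.05 (all genes: 12.5%), all more negative in CE cells. With 10 libraries 11 of 24 were called more negative and 0 more positive (all genes: 10.3% and 9.02%), the median was -0.33, and 17 members rose in parental cells (all genes: 14.3%) while 5 rose and 8 fell in CE cells (all genes: 17.7% and 16.4%).

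FHL2, SRF, IER2, JUN and CCN1, immediate early genes or targets of SRF, rose in parental cells, with a smaller rise or no called change in CE cells with 12 libraries. CE controls held FHL2, SRF and IER2 above the parental controls. FHL2 (chromosome 2, 105357712 to 105438513, minus strand), a LIM-domain cofactor and known target of SRF, was at 0.52, 0.4 and 0.57 TPM in parental controls and 4.66, 4.27 and 5.4 TPM in parental Acetalax libraries. In CE cells it was at 16, 15.7 and 14.4 TPM in controls and 11.3, 9.85 and 9.86 TPM after Acetalax. All 6 parental libraries lay below all 6 CE libraries, and parental control 2 and parental Acetalax 3 lay close to the others of their groups. FHL2 rose by 3.50 ± 0.17 in parental cells (adjusted p = 4.39e-06), its CE response of -0.46 ± 0.14 did not pass (adjusted p = 0.068), and the difference was -3.96 ± 0.22 (adjusted p = 3.41e-05). It kept its call under all 27 alternative settings tried, with a highest adjusted p of 0.00830. With 10 libraries the difference was -3.76 ± 0.20 (adjusted p = 1.49e-08), and the fall in CE cells passed (adjusted p = 0.000736).

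SRF itself (chromosome 6, 43171299 to 43181507, plus strand) was at 20.3, 22 and 19.9 TPM in parental controls, 60.6, 54.9 and 69.6 TPM in parental Acetalax libraries, 39, 36.6 and 38.5 TPM in CE controls and 47.1, 45.5 and 46.2 TPM in CE Acetalax libraries. Treated and untreated libraries did not overlap in either kind of cell. The rise in parental cells was 1.67 (adjusted p = 6.06e-05), the CE response was 0.43 (adjusted p = 0.0628), and the difference was -1.24 ± 0.18 (adjusted p = 0.00919). With 10 libraries the CE rise of 0.44 passed (adjusted p = 1.52e-06). IER2, an immediate early transcriptional regulator, was at 38.9 to 44.1 TPM in parental controls and 66.1 to 87.5 TPM after Acetalax, while all 6 CE libraries were at 86.3 to 96.3 TPM. Its difference was -0.86 ± 0.13 (adjusted p = 0.011). Neither call was lost when any 1 library was left out.

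JUN, the AP-1 subunit on chromosome 1, differed in another way, because CE cells held almost none. Parental controls were at 49, 18.4 and 52.2 TPM and parental Acetalax libraries at 170, 163 and 164 TPM, whereas CE controls were at 1.1, 1.28 and 1.12 TPM and CE Acetalax libraries at 1.26, 1.18 and 1.16 TPM. The parental groups did not overlap and the CE groups did. JUN rose by 2.17 in parental cells (adjusted p = 0.00077) and its CE response was 0.09 (adjusted p = 0.949), a difference of -2.08 ± 0.40 (adjusted p = 0.034). The call was lost without parental control 1, parental Acetalax 1, parental Acetalax 2 or any 1 CE library (adjusted p 0.0517 to 0.113), and with 10 libraries the difference was -1.72 ± 0.10 (adjusted p = 3.2e-08). CCN1, a matrix protein driven by SRF and YAP, rose in both: from 8.34 to 9.45 TPM in parental controls to 41.3 to 54.8 TPM, and from 6.19 to 7.56 TPM in CE controls to 15.9 to 16.9 TPM. The 2 kinds began at like levels, and the difference was -1.21 ± 0.19 (adjusted p = 0.0147). It was lost without CE control 2 or 3 or CE Acetalax 1 or 2 (adjusted p 0.0523 to 0.0584).

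Of the 28 measured members of the AP-1 and EGR list, 4 were called more negative and 0 more positive in CE cells (all genes: 0.701% and 0.583%), with a median difference of -0.37. In parental cells 11 members rose (all genes: 4.04%), and in CE cells 5 (all genes: 3.34%), with median responses of 0.75 and 0.51. DESeq2 called 8 members and limma 5 (all genes: 6.32% and 2.48%). Of 13 with an unadjusted p under 0.05 in edgeR (all genes: 12.5%), 10 were more negative. With 10 libraries 10 were more negative and 5 more positive (all genes: 10.3% and 9.02%). FOS, the partner of JUN in AP-1, was the opposite case in the 10 libraries: its mean was 10.3 TPM in parental controls and 13.7 TPM after Acetalax, against 8.96 and 51.2 TPM in CE cells, a difference of 2.20 ± 0.16 (adjusted p = 3.21e-07). With 12 libraries that difference was 1.98 and did not pass (adjusted p = 0.399). FOS is named here because it opposes JUN and was chosen after its values were seen, as was EGR1, an immediate early zinc finger factor. EGR1 stood at 0.34 and 3.1 TPM in parental cells of the 10 libraries and at 45.9 and 79 TPM in CE cells, and its difference was -2.33 ± 0.18 (adjusted p = 7.65e-07; with 12 libraries -1.88, adjusted p = 0.123).

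**Figure D3:**
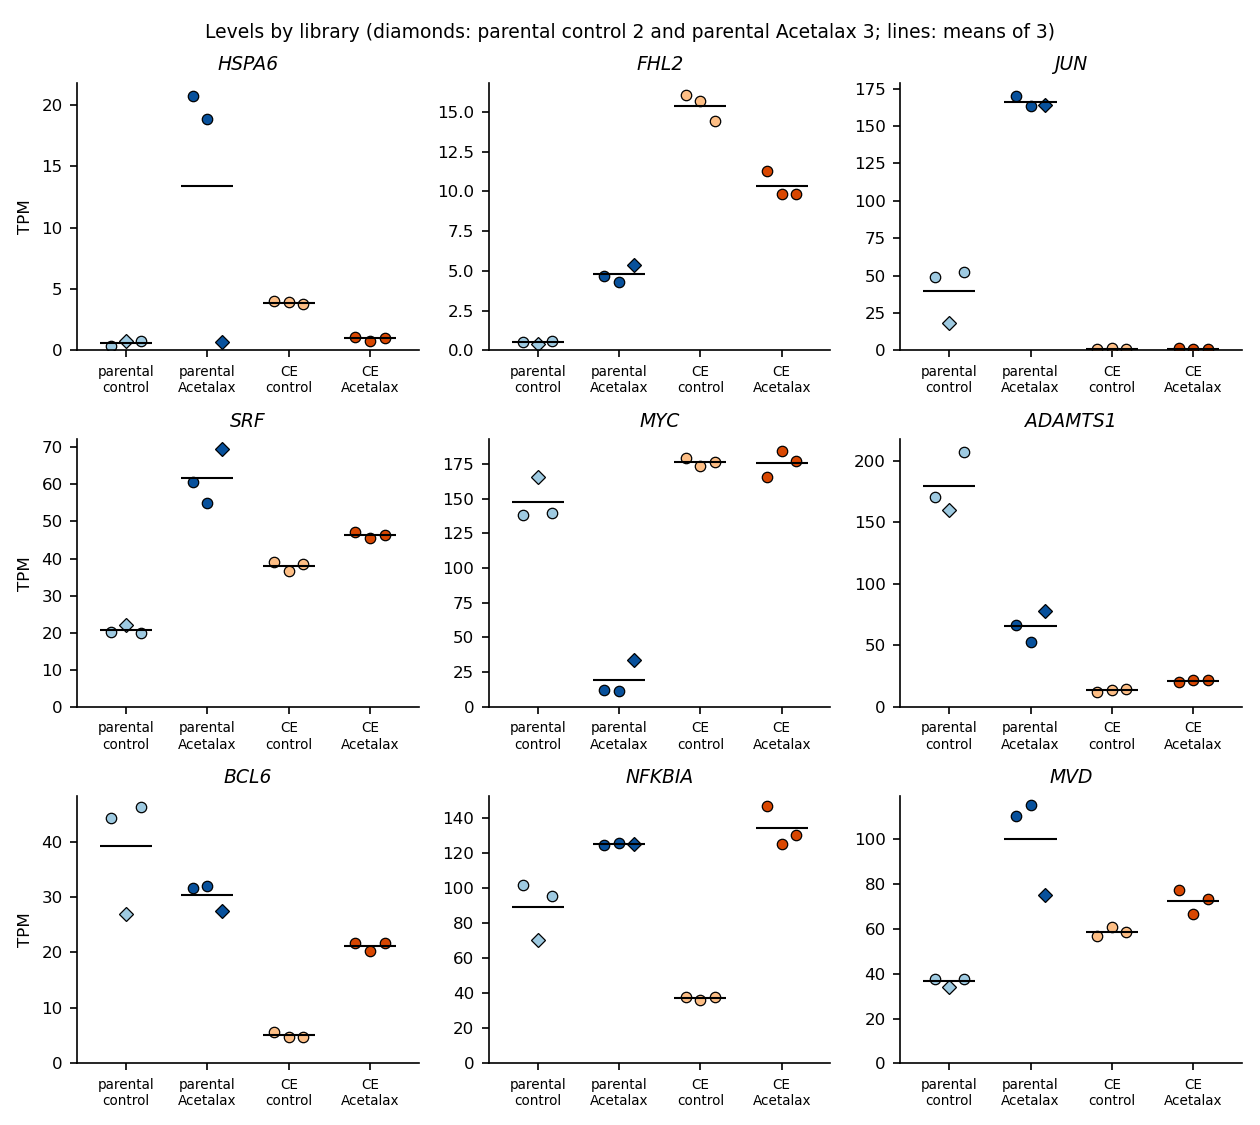
Levels of 9 genes in TPM on linear axes from 0, 1 point per library in each of the 4 groups, with lines at the mean of 3 and diamonds for parental control 2 and parental Acetalax 3. HSPA6 reaches 20.8 and 18.8 TPM in parental Acetalax 1 and 2 and is at 0.7 TPM in parental Acetalax 3; MYC falls in the 3 treated parental libraries and stays between 166 and 184 TPM in CE cells.

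MYC fell in parental cells, and its CE response did not pass with 12 libraries. It (chromosome 8, 127735434 to 127741434) was at 138, 165 and 140 TPM in parental controls and at 12.5, 11.7 and 33.4 TPM in parental Acetalax libraries. CE controls were at 180, 173 and 177 TPM and CE Acetalax libraries at 166, 184 and 177 TPM. The parental groups were far apart, with parental Acetalax 3 the least changed, and the CE groups overlapped. MYC fell by 2.82 on the log2 scale in parental cells (adjusted p = 0.00136), its CE response was 0.10 (adjusted p = 0.954), and the difference of responses was 2.92 ± 0.53 (adjusted p = 0.0266). The call was lost without parental control 1, parental Acetalax 2 or any 1 CE library (adjusted p 0.0541 to 0.0938). With 10 libraries, which leave out parental Acetalax 3, the difference was 3.55 ± 0.07 (adjusted p = 1.76e-13), and a CE rise of 0.11 passed (adjusted p = 0.0476).

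MGA, a MAX partner that opposes MYC at its binding sites, moved in opposite directions in the 2 kinds of cells. It was at 6.73, 6.06 and 8.41 TPM in parental controls and 12.3, 9.99 and 8.46 TPM after Acetalax, and at 10.2, 9.33 and 10.3 TPM in CE controls and 5.72, 5.72 and 6.04 TPM after Acetalax. It rose by 0.52 in parental cells (adjusted p = 0.0309) and fell by 0.72 in CE cells (adjusted p = 0.00873), a difference of -1.24 ± 0.18 (adjusted p = 0.0113) that was lost without CE Acetalax 1 (adjusted p = 0.0536). MYC and MGA were the members called among the 12 measured in the MYC network list, whose median difference was -0.01. That is 1 more positive and 1 more negative in CE cells (all genes: 0.583% and 0.701%). MXD1, another MAX partner, rose in both, by 2.02 in parental and 1.05 in CE cells, and its difference of -0.97 did not pass (adjusted p = 0.175). Of the 12 members, 3 were more positive and 2 more negative in CE cells with 10 libraries (all genes: 9.02% and 10.3%).

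SPRY2, SPRY4, ADAMTS1, SNAI2, FZD8 and BCAR3 fell in parental cells, with a CE response that was a rise or did not pass with 12 libraries. With 10 libraries SPRY4, FZD8 and BCAR3 also rose in CE cells, by 0.39 (adjusted p = 2.13e-05), 0.16 (adjusted p = 0.00712) and 0.58 (adjusted p = 0.00278). SPRY2 (chromosome 13), a feedback inhibitor of receptor tyrosine kinase signalling, was at 0.92, 1.08 and 1.04 TPM in parental controls and 0.42, 0.44 and 0.45 TPM after Acetalax. CE controls were at 202, 192 and 218 TPM and CE Acetalax libraries at 272, 272 and 276 TPM. The groups did not overlap in either kind, and the level in CE cells was far above that in parental cells. SPRY2 fell by 1.13 in parental cells (adjusted p = 0.000203) and rose by 0.55 in CE cells (adjusted p = 0.00303), a difference of 1.69 ± 0.14 (adjusted p = 0.000431). SPRY4, its paralogue, was at 1.25 to 1.89 TPM in parental controls, 0.45 to 0.89 TPM after Acetalax, 108 to 120 TPM in CE controls and 131 to 135 TPM in CE Acetalax libraries, a difference of 1.19 ± 0.22 (adjusted p = 0.0292). The SPRY4 call was lost without parental control 1 or any 1 CE library (adjusted p 0.0754 to 0.101). They were the 2 members called of the 18 measured in the ERK feedback list, both more positive in CE cells (all genes: 0.583%). The median difference of the list was 0.13. With 10 libraries 7 members were more positive and 4 more negative (all genes: 9.02% and 10.3%).

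ADAMTS1 (chromosome 21, 26835747 to 26845409, minus strand), a secreted matrix protease, fell in parental cells from 171, 160 and 207 TPM to 66.2, 52.7 and 77.5 TPM. In CE cells it rose from 12.4, 13.3 and 14.3 TPM to 20.3, 21.5 and 22.1 TPM. No groups overlapped. The parental response was -1.38 (adjusted p = 0.000385), the CE response 0.84 (adjusted p = 0.00855), and the difference 2.22 ± 0.22 (adjusted p = 0.00136). It kept its call under all 27 alternative settings, with a highest adjusted p of 0.0437.

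SNAI2, a repressor of epithelial genes, was at 3.23, 1.55 and 2.93 TPM in parental controls and 0.42, 0.48 and 0.22 TPM after Acetalax. In CE cells it was at 33.6, 29.9 and 31.9 TPM in controls and 26.1, 26.9 and 25.2 TPM after Acetalax. Controls were above treated libraries in both kinds, without overlap. It fell by 2.84 in parental cells (adjusted p = 0.000427), the CE response of -0.15 did not pass (adjusted p = 0.839), and the difference was 2.70 ± 0.41 (adjusted p = 0.012). FZD8, a WNT receptor, was at 2.94 to 5.74 TPM in parental controls and 1.1 to 1.34 TPM after Acetalax, while all 6 CE libraries were at 101 to 106 TPM, a difference of 2.00 ± 0.24 (adjusted p = 0.00409). BCAR3, an adaptor of SRC family and CAS signalling, had group means of 13.4 and 4.2 TPM in parental cells and 2.17 and 3.13 TPM in CE cells, a difference of 1.94 ± 0.31 (adjusted p = 0.015). The calls of SNAI2 and FZD8 were not lost without any 1 library. That of BCAR3 was lost without any 1 of the CE controls, CE Acetalax 2 or CE Acetalax 3 (adjusted p 0.0544 to 0.0650).

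BCL6, BTG1 and OVGP1 rose in CE cells. BCL6 (chromosome 3, 187721377 to 187745727, minus strand), a transcriptional repressor best known in germinal centre B cells, was at 44.3, 26.9 and 46.1 TPM in parental controls and 31.6, 32.1 and 27.5 TPM after Acetalax, groups that overlapped. In CE cells it rose from 5.68, 4.66 and 4.72 TPM to 21.8, 20.2 and 21.6 TPM. Treated CE cells thereby approached, but did not reach, the mean of untreated parental cells. The CE response was 2.31 (adjusted p = 1.29e-05), the parental response -0.25 (adjusted p = 0.246), and the difference 2.56 ± 0.17 (adjusted p = 0.000111). It kept its call under all 27 alternative settings, with a highest adjusted p of 0.0345. With 10 libraries the difference was 2.72 ± 0.08 (adjusted p = 1.41e-11), and a fall of 0.40 in parental cells passed (adjusted p = 7.44e-05).

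BTG1, an anti-proliferative partner of the mRNA deadenylase complex, was at 172, 153 and 179 TPM in parental controls and 143, 147 and 123 TPM after Acetalax. CE cells rose from 10.7, 8.84 and 10.4 TPM to 20.7, 21.2 and 20.8 TPM, still below every parental library. The difference was 1.39 ± 0.10 (adjusted p = 0.000183), and with all 24 libraries of the series in the fit it was 1.41 and did not pass (adjusted p = 0.208). It was the 1 member called of the 16 measured in the mRNA decay list (all genes: 0.583% more positive), whose median difference was 0.00. Of the 16, 4 were more positive and 3 more negative in CE cells with 10 libraries (all genes: 9.02% and 10.3%). OVGP1, an oviduct glycoprotein, was at 6.16 to 8.2 TPM in all 6 parental libraries and rose in CE cells from 0.6 to 0.82 TPM to 2.67 to 3.3 TPM, a difference of 1.89 ± 0.20 (adjusted p = 0.00266).

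CLDN4, KRTCAP3, CUL9 and TREX1 were low in CE controls and rose there. CLDN4, a tight junction protein, was at 167 to 281 TPM in all parental libraries, at 0.24, 0.35 and 0.26 TPM in CE controls and at 1.04, 0.96 and 1.12 TPM in CE Acetalax libraries. The difference was 1.93 ± 0.26 (adjusted p = 0.00787), and the highest CE level remained far under the lowest parental level. KRTCAP3, a keratinocyte-associated membrane protein, rose in CE cells from a mean of 0.37 to 1.47 TPM with 166 and 168 TPM in parental cells, a difference of 1.99 ± 0.37 (adjusted p = 0.0307). CUL9, a scaffold that binds p53, rose from 0.48 to 1.5 TPM in CE cells, a difference of 1.65 ± 0.30 (adjusted p = 0.028), and TREX1, the cytosolic DNA exonuclease, from 0.96 to 1.96 TPM, a difference of 1.58 ± 0.27 (adjusted p = 0.0219).

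The call of CLDN4 was not lost without any 1 library. KRTCAP3 lost it without any 1 of 8 libraries (adjusted p 0.0582 to 0.115: parental control 1, parental Acetalax 1 and 2, the CE controls, and CE Acetalax 1 and 3). CUL9 lost it without any 1 of 9 (adjusted p 0.0536 to 0.103: parental controls 1 and 3, parental Acetalax 2 and the CE libraries). TREX1 lost it without any 1 of 5 (adjusted p 0.0504 to 0.0819: parental control 1, parental Acetalax 1, CE control 1, and CE Acetalax 2 and 3). C1orf116, an androgen-regulated gene, fell in parental cells from a mean of 75.9 to 28.2 TPM. In CE cells it stood at 0.03, 0.07 and 0.02 TPM in controls and 0.19, 0.12 and 0.18 TPM after Acetalax, so its difference of 3.90 ± 0.30 (adjusted p = 0.000317) sets a change at high level beside one near the detection limit. It was the 1 member called of 28 in the list of androgen-induced genes (all genes: 0.583% more positive). Of these 28, 16 were below 1 TPM in a kind of cell. AHRR, the aryl hydrocarbon receptor repressor, had a difference of 4.33 ± 0.75 (adjusted p = 0.0219), lost without any 1 of 7 libraries (adjusted p 0.0551 to 0.0873: parental control 1, parental Acetalax 1 and 2, CE control 2 and the CE Acetalax libraries). Its level was at most 0.55 TPM in each of the 12 libraries.

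In the NF-kB list, NFKBIA and BIRC3 rose more in CE cells, and the cytokines IL11 and LIF rose in parental cells with a CE response that did not pass. NFKBIA (chromosome 14, 35401511 to 35404749, minus strand) encodes the inhibitor that binds NF-kB and is its own target. It was at 102, 70.4 and 95.3 TPM in parental controls and 124, 126 and 125 TPM after Acetalax, and at 37.7, 36.1 and 37.7 TPM in CE controls and 147, 125 and 130 TPM after Acetalax. From different controls, both kinds reached about the same level. It rose by 0.57 in parental cells (adjusted p = 0.00913) and by 2.00 in CE cells (adjusted p = 1.78e-05), a difference of 1.43 ± 0.16 (adjusted p = 0.00273). BIRC3, an NF-kB-induced inhibitor of apoptosis, was at 1.22 to 2.74 TPM in the 6 parental libraries, whose groups overlapped. It rose in CE cells from 0.31, 0.23 and 0.34 TPM to 2.28, 1.66 and 2.42 TPM, a difference of 2.44 ± 0.26 (adjusted p = 0.00264). Neither call was lost without any 1 library.

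IL11 and LIF are cytokines that signal through gp130. IL11 was at 1.03 to 1.46 TPM in parental controls and 1.97 to 3.1 TPM after Acetalax, and at 7.83 to 9.07 TPM and 5.61 to 7.21 TPM in CE cells. Its difference was -1.46 ± 0.25 (adjusted p = 0.0198), lost without parental Acetalax 2 or any 1 CE library (adjusted p 0.0511 to 0.0769). LIF was at 1.21 to 1.76 TPM and 2.17 to 2.66 TPM in parental cells and at 5.12 to 6.05 TPM and 3.88 to 4.11 TPM in CE cells. Its difference was -0.98 ± 0.19 (adjusted p = 0.0336), lost without parental control 1 or 3, parental Acetalax 1 or any 1 CE library (adjusted p 0.0536 to 0.119). In parental cells the rise was 1.37 for IL11 (adjusted p = 0.00106) and 0.75 for LIF (adjusted p = 0.00618), and in CE cells the responses were -0.09 (adjusted p = 0.856) and -0.23 (adjusted p = 0.38). These 4 genes were those called among 14 measured, 2 more positive and 2 more negative in CE cells (all genes: 0.583% and 0.701%). The median difference was -0.02. In parental cells 7 members rose (all genes: 4.04%), and in CE cells 6 (all genes: 3.34%). Of the 14 members, 4 were more positive and 3 more negative in CE cells with 10 libraries (all genes: 9.02% and 10.3%).

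Of the 23 measured members of the SREBP2 list, 14 rose in parental cells (all genes: 4.04%) and 13 in CE cells (all genes: 3.34%). MVD, which makes isopentenyl pyrophosphate, was at 37.9, 34 and 37.8 TPM and 111, 115 and 75.2 TPM in parental cells and at 56.7, 60.9 and 58.7 TPM and 77.4, 66.8 and 73.3 TPM in CE cells, each time controls first. Treated libraries were above controls in both kinds, without overlap. MVD rose by 1.32 in parental cells (adjusted p = 9.26e-05) and its CE response of 0.35 did not pass (adjusted p = 0.084). Its difference of -0.97 ± 0.16 (adjusted p = 0.015) was lost without CE control 2 or 3 or any 1 CE Acetalax library (adjusted p 0.0542 to 0.0651). With 10 libraries it was -1.13 ± 0.09 (adjusted p = 1.33e-06), and the CE rise of 0.36 passed (adjusted p = 0.000173).

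HMGCS1, an early enzyme of the pathway, rose by 1.47 in parental and 0.83 in CE cells, and its difference of -0.64 ± 0.15 did not pass (adjusted p = 0.0793). With 10 libraries it was -0.80 (adjusted p = 1.57e-06). Over the SREBP2 list the median responses were 0.56 in parental and 0.65 in CE cells. The median difference was -0.11, and 2 members, MVD among them, were called more negative in CE cells (all genes: 0.701%). With 10 libraries 21 rose in parental cells (all genes: 14.3%) and 20 in CE cells (all genes: 17.7%). Of the 23, 8 had the more negative and 1 the more positive CE response there (all genes: 10.3% and 9.02%), and the median difference was -0.10. INSIG1, the sterol-sensing brake on SREBP2, rose by 2.02 in parental and 1.79 in CE cells. Its difference did not pass with 12 or 10 libraries (lowest adjusted p 0.0884), and it was picked after its values were seen.

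Regulators of transcription elongation moved by less than 2-fold. CDK9, the kinase that releases paused RNA polymerase, was at 57.2, 51.2 and 56.5 TPM in parental controls and 46.1, 47.1 and 38.8 TPM after Acetalax, and at 61.9, 61.7 and 60.5 TPM and 32.8, 38.3 and 34 TPM in CE cells. It fell by 0.30 in parental cells (adjusted p = 0.0198) and by 0.80 in CE cells (adjusted p = 0.000231), a difference of -0.50 ± 0.10 (adjusted p = 0.0336). HEXIM1, which holds CDK9 inactive in the 7SK particle, was at 42.1, 31.9 and 41.8 TPM and 25.7, 23.5 and 21.1 TPM in parental cells and at 40.5, 42.5 and 41.2 TPM and 36.5, 35.9 and 36.5 TPM in CE cells. It fell by 0.62 in parental cells (adjusted p = 0.000954), its CE response was -0.05 (adjusted p = 0.842), and the difference was 0.58 ± 0.11 (adjusted p = 0.0394). Both calls were lost when any 1 library other than parental control 2 and parental Acetalax 3 was left out (adjusted p 0.0618 to 0.121 for CDK9 and 0.0632 to 0.133 for HEXIM1). They were the 2 called of 22 measured members, 1 more positive and 1 more negative in CE cells (all genes: 0.583% and 0.701%). The median difference was -0.10. MEPCE, which caps and stabilises 7SK RNA, had a difference of 0.94 ± 0.21 (adjusted p = 0.0673) and, with 10 libraries, 1.05 ± 0.07 (adjusted p = 6.13e-08). Of the 22 members, 4 were more positive and 9 more negative in CE cells with 10 libraries (all genes: 9.02% and 10.3%).

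Among the remaining genes with a stronger rise in parental cells, GBP1, an interferon-induced GTPase, went from 0.52, 0.27 and 0.33 TPM to 1.94, 1.4 and 2.36 TPM in parental cells, while all 6 CE libraries were at 28 to 30.8 TPM. Its difference was -1.90 ± 0.24 (adjusted p = 0.00553). CYBA, a membrane subunit of NADPH oxidase, was at 0.04, 0 and 0.61 TPM in parental controls and 2.23, 1.36 and 0.58 TPM after Acetalax, groups that overlapped, and at 43.4 to 51.9 TPM in CE cells. Its difference was -3.63 ± 0.74 (adjusted p = 0.0431). ANKLE1, a nuclease of blood-forming tissue, had means of 0.45 and 1.6 TPM in parental cells and 39.1 and 24 TPM in CE cells, a difference of -1.88 ± 0.28 (adjusted p = 0.0119). All 3 stood far higher in CE cells from the start. GRB7, an adaptor of receptor tyrosine kinases, was lower there, with means of 9.21 and 21.3 TPM in parental cells and 1.58 and 1.08 TPM in CE cells, a difference of -1.59 ± 0.31 (adjusted p = 0.0373). LRP5L, a gene related to the WNT coreceptor LRP5, began at like means, 4.63 TPM in parental controls and 4.76 TPM in CE controls, and went to 7.68 and 3.12 TPM, a difference of -1.49 ± 0.24 (adjusted p = 0.0149). In parental Acetalax 1 to 3 it was at 9.11, 8.71 and 5.21 TPM, the last within the 4.01 to 5.27 TPM of the controls. GRB7 and CYBA lost their calls without any 1 of 10 and of 9 libraries (adjusted p 0.0525 to 0.120 for GRB7, all but parental control 2 and parental Acetalax 3, and 0.0928 to 0.126 for CYBA, parental control 1, parental Acetalax 1 and 2 and the CE libraries), and LRP5L without any 1 of 4 (0.0511 to 0.0623, CE controls 2 and 3 and CE Acetalax 1 and 2). Those of GBP1 and ANKLE1 were not lost. With 10 libraries a CE fall passed for ANKLE1 (-0.56, adjusted p = 4.2e-07) and LRP5L (-0.58, adjusted p = 0.0007), and a CE rise for GBP1 (0.15, adjusted p = 0.0259).

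AC093525.8, a gene named only by its clone, rose in parental cells from a mean of 0.74 to 10.9 TPM and stood at 0.67 and 1.11 TPM in CE cells. Its difference of -3.09 ± 0.51 (adjusted p = 0.018) was lost without CE control 1 or 3 or CE Acetalax 1 or 3 (adjusted p 0.0623 to 0.0682). CLPTM1, a membrane protein with roles in receptor trafficking, rose from 3.61 to 3.86 TPM to 9.26 to 13.2 TPM in parental cells, with 89.1 to 95.5 TPM in CE cells, a difference of -1.21 ± 0.12 (adjusted p = 0.00155). UBALD1, a small protein with a UBA-like fold, rose by 1.52 in parental and 0.43 in CE cells, a difference of -1.08 ± 0.12 (adjusted p = 0.00273). WDR37, a partner of the sorting protein PACS1, went the other way: it fell by 0.66 in parental cells, its CE response of 0.24 did not pass (adjusted p = 0.0628), and the difference was 0.91 ± 0.10 (adjusted p = 0.00273). The calls of CLPTM1, UBALD1 and WDR37 were not lost without any 1 library. With 10 libraries a CE rise also passed for AC093525.8 (0.86, adjusted p = 0.0229), CLPTM1 (0.19, adjusted p = 0.00703) and WDR37 (0.25, adjusted p = 0.00227).

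DAPK3, a kinase that phosphorylates the myosin light chain, was a gene with opposite responses at like control levels. It was at 73.1, 56.5 and 71.3 TPM in parental controls and 121, 107 and 93.7 TPM after Acetalax, and at 59, 58.5 and 59.5 TPM in CE controls and 40, 38.3 and 40.2 TPM after Acetalax. It rose by 0.60 in parental cells (adjusted p = 0.00065) and fell by 0.42 in CE cells (adjusted p = 0.00743), a difference of -1.01 ± 0.10 (adjusted p = 0.00175) that held without any 1 library. VPS18 was at 17.4, 14.8 and 18.9 TPM and 31.1, 30.1 and 14.5 TPM in parental cells and at 19.1, 19.8 and 18.2 TPM and 10.5, 10.6 and 10.5 TPM in CE cells. Parental Acetalax 3 was here below every parental control, while the CE groups did not overlap. The difference of -1.32 ± 0.27 (adjusted p = 0.0474) was lost without any 1 library other than parental Acetalax 3 (adjusted p 0.0513 to 0.137). With 10 libraries, which leave out parental Acetalax 3, it was -1.53 ± 0.07 (adjusted p = 3.58e-09). The parental rise was then 0.87 (adjusted p = 2.36e-08) and the CE response -0.66 (adjusted p = 6.82e-08).

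TRPM4 itself (chromosome 19, 49157741 to 49211836) was at 107, 91.1 and 98.6 TPM in parental controls and 81.7, 96.3 and 94.9 TPM after Acetalax. CE controls were at 9.73, 9.66 and 8.87 TPM and CE Acetalax libraries at 6.98, 6.46 and 8.9 TPM. CE cells were far lower throughout, and the groups within each kind overlapped. The responses were 0.08 and -0.20, and the difference of -0.28 ± 0.14 did not pass (adjusted p = 0.487, and 0.221 with 10 libraries). Of 9 measured TRPM channels and SUR1 partners, edgeR called 0 with 12 libraries and 1 with 10, beside 1.28% and 19.3% of all genes. With 12 libraries 1 had an unadjusted p under 0.05 in edgeR (all genes: 12.5%). DESeq2 and limma called 0 each (all genes: 6.32% and 2.48%).

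Of the 32 pathway lists, 11 had a member called with 12 libraries. In the other 21, with 464 measured members, edgeR called 0, while 42 had an unadjusted p under 0.05, DESeq2 called 11 and limma 2. These are 9.05%, 2.37% and 0.43% of the members, against 12.5%, 6.32% and 2.48% of all genes tested. Those lists include DNA replication and mitosis, the integrated stress response and hypoxia targets, to which PCNA, DDIT3, VEGFA and NDRG1 belong, the genes that set the 2 parental libraries apart. The part of those libraries in these counts was not tested beyond the fit without them.

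**Figure D4:**
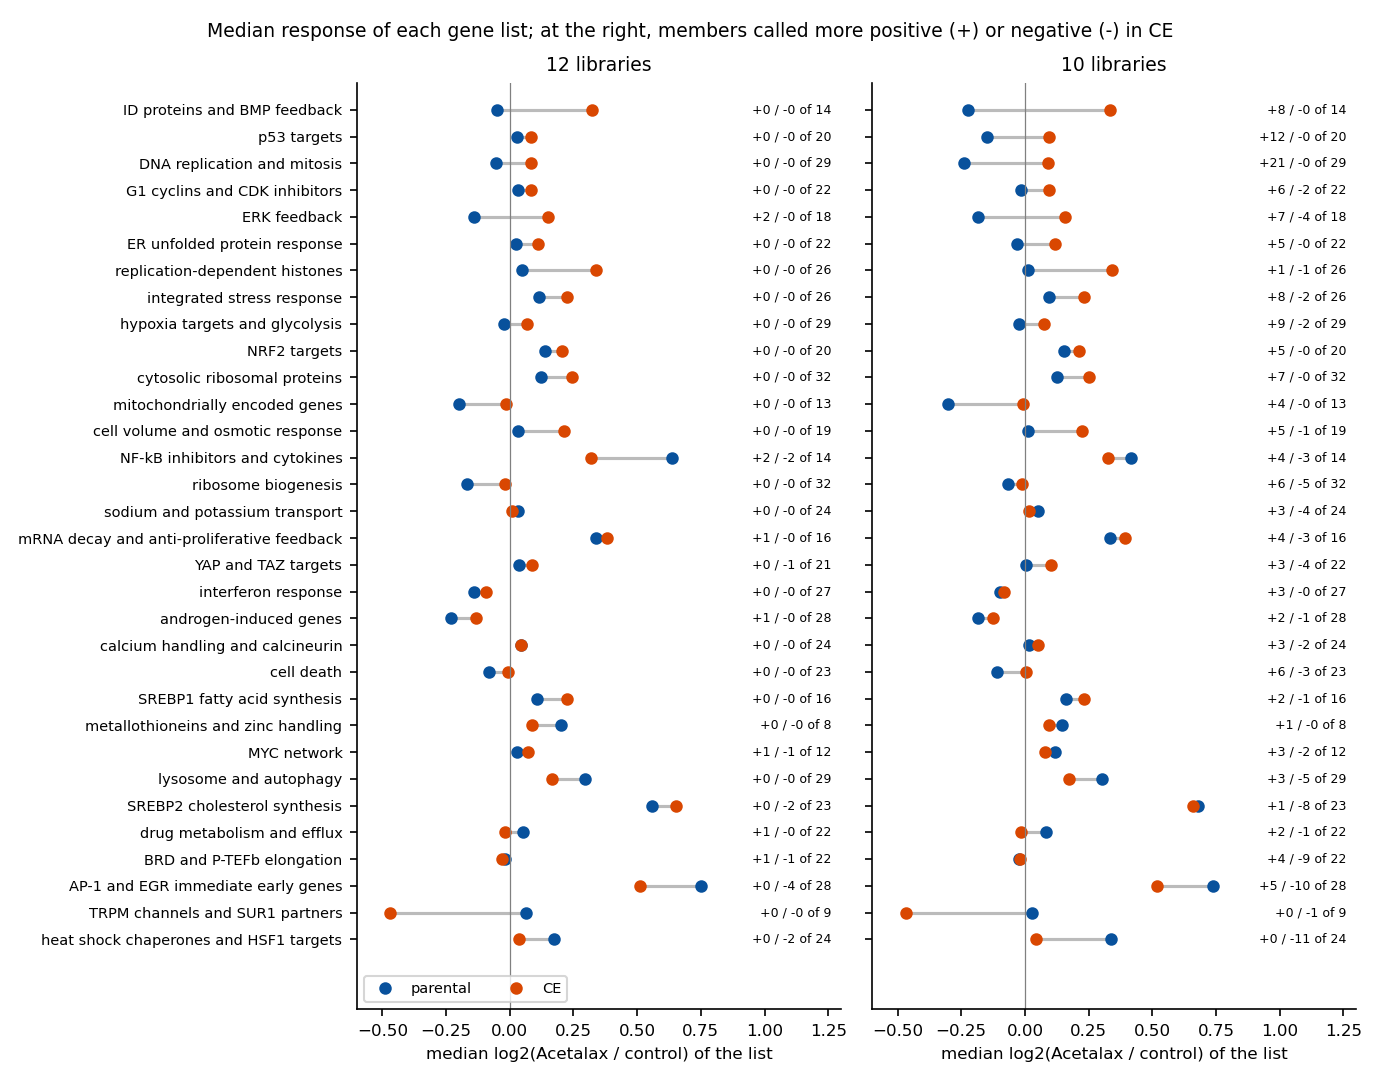
Median log2(Acetalax / control) of each of 32 gene lists in parental cells (blue) and CE cells (orange), with 12 libraries at the left and 10 at the right; figures at the right edge count members called more positive or more negative in CE cells among those tested. Heat shock chaperones stand at 0.18 and 0.04 with 12 libraries and at 0.34 and 0.04 with 10.

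Promoter windows were found in RefSeq for 82 of the 113 genes with a more positive and 95 of the 136 with a more negative CE response. The heat shock element shown for HSPA6 and HSPA1B was in the windows of 13 genes of the second group (13.7%) and 8 of the first (9.76%), against 14.0% of all 27305 genes in the table. The other holders among named genes were JUN, GBP1 and MGA in the second group and BCL6 and BCAR3 in the first. The CArG box was in 4 of 95 (4.21%: SRF, FHL2, GBP1 and CNN2, a calponin of the actin cytoskeleton) and in 1 of 82 (1.22%), against 1.44% of all genes. The AP-1 site (TGACTCA or TGAGTCA) was in 4 of 95 (4.21%) and 7 of 82 (8.54%), against 5.19%. The E-box CACGTG was in 4 of 95 (4.21%) and 10 of 82 (12.2%), against 7.73%. The cyclic AMP response element (TGACGTCA) was in 4 of 95 (4.21%) and 0 of 82, against 2.03%. No test was made of these shares.

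The number of genes called varied more with the libraries and the tool than between TMM and RLE scaling in edgeR. The limma fits used TPM with neither scaling, so tool and scaling changed together there. DESeq2 called 1082 genes in the 12 libraries, limma on log2(TPM + 1) 481 (172 more positive and 309 more negative), edgeR with RLE scaling 255, and edgeR with a threshold of 1.5-fold in the test 21. Among the genes described, limma on log2(TPM + 1) did not call HSPA6, HSPA1B, CYBA, CLDN4, CUL9, KRTCAP3, TREX1, SPRY4, CDK9, HEXIM1, AHRR or VPS18. With log2(TPM + 0.1) it called CLDN4 but neither the other genes of that group nor IL11 and LRP5L. With all 24 libraries in the edgeR fit, BTG1, UBALD1, JUN, KRTCAP3, TREX1, LIF and MVD did not pass.

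**Figure D5:**
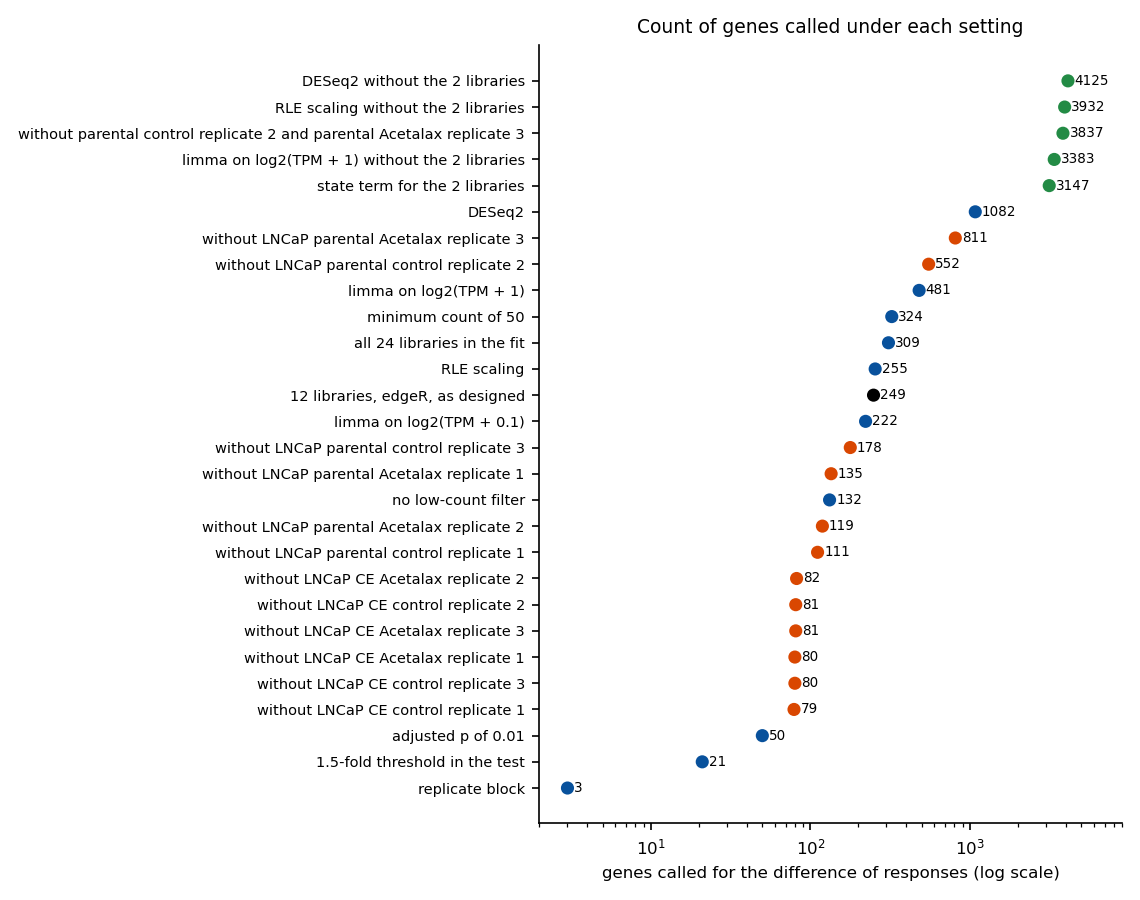
Count of genes called for the difference of responses under each setting, on a log axis, with the count beside each point: black for the 12 libraries with edgeR, orange for 1 library left out, green for fits that remove or model the 2 libraries that stand apart, blue for other changes. Counts run from 3 with the replicate number as a block to 4125 with DESeq2 without the 2 libraries, around 249.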

How the data were processed

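RNA was measured in poly(A)-enriched, strand-directional libraries. The submitters' processing notes name FastQC, STAR 2.7, RSEM and the build GRCh38. Which annotation release was used, and whether counting used strand, is not given in the sources used here. Values of antisense and overlapping genes are therefore uncertain. RSEM expected counts of 60660 features were deposited by the authors. Of these values 10.1% were not whole, and all were rounded (no LNCaP total moved by more than 8.28e-05%). TPM values, deposited by the authors, were used for levels and for limma on log2(TPM + 1) or log2(TPM + 0.1), scales that understate changes of low genes. For limma they were not scaled further between libraries. In the 2 tables, 2 columns belonged to no sample and were not used. No label names separate cultures behind the stated biological triplicates. The p-values therefore measure the spread between these libraries alone, which may be technical.

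Expected counts were tested with edgeR 4.0.16 in R 4.3.3 (filterByExpr with a minimum count of 10, TMM scaling, quasi-likelihood F-test of the contrast between 4 group means, Benjamini-Hochberg adjustment over all genes tested, threshold 0.05). SE is the size of the log2 value divided by the square root of F. Alternatives with DESeq2 1.42.0, limma 3.58.1 and other filters, scalings and libraries are given at the end. Replicates of each group differed by more than sampling noise, and no pair was counted as 1 sample. The replicate numbers did not pair the libraries: deviations of same-numbered libraries correlated at -0.59 to 0.41 in parental and -0.02 to -0.01 in CE cells.

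Genes are named by rule: the 12 largest positive and 12 largest negative differences called in both the 12- and the 10-library fit, with a mean of at least 5 TPM in a group and at least 1 TPM in each kind of cell; up to 4 members of each list with the smallest adjusted p; the 3 with the smallest adjusted p in each response class; and TRPM4, VEGFA, NDRG1 and DDIT3. Not every gene the rule takes is described, and some items are not reported here. Members, lists and the 2 libraries were chosen with earlier results of these data known. The CArG box (CC, 6 of A or T, GG) was added to the motif search after the data were seen, as were 4 alternatives. Positions come from GENCODE 29 on GRCh38 (58429 features matched), promoter sequences from RefSeq on GRCh38.p14.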

Additional observations from a re-analysis of the deposited data

Results flagged for a closer look

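The responses of 249 genes to Acetalax differed between CE and parental cells by a test of the difference itself, the edgeR contrast given above. The largest among genes with a mean of at least 5 TPM in a group and at least 1 TPM in a group of each kind of cell (log2, CE minus parental, 12 libraries) are set out here by direction. Of the genes below those levels, AHRR (4.33) and C1orf116 (3.90) had larger positive values. Each is a case of unequal response in 2 kinds of cells under the same treatment.

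The more negative values in CE cells were -6.36 for HSPA6, -3.96 for FHL2, -3.63 for CYBA, -3.09 for AC093525.8, -2.70 for HSPA1B, -2.08 for JUN, -1.90 for GBP1, -1.88 for ANKLE1, -1.59 for GRB7, -1.49 for LRP5L, -1.46 for IL11 and -1.32 for VPS18. Of these, HSPA6, HSPA1B, CYBA, LRP5L and VPS18 each had parental Acetalax 3 within or below the range of the parental controls or just above it, and the 2 parental libraries that stand apart lay close to their groups for FHL2. HSPA6, FHL2, CYBA, AC093525.8, GBP1 and ANKLE1 had a mean below 1 TPM in parental controls, where counting error is larger. So did AC093525.8 in CE controls.

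The more positive values in CE cells were 2.92 for MYC, 2.70 for SNAI2, 2.56 for BCL6, 2.22 for ADAMTS1, 2.00 for FZD8, 1.99 for KRTCAP3, 1.94 for BCAR3, 1.93 for CLDN4, 1.89 for OVGP1, 1.69 for SPRY2, 1.65 for CUL9 and 1.58 for TREX1. Of these, CLDN4, KRTCAP3, OVGP1, CUL9 and TREX1 had a mean below 1 TPM in CE controls, where counting error is larger. The part of the different starting levels in these values was not tested.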

How the results depend on the processing

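The count of genes whose responses differed moved with the libraries. It was 249 in 12 libraries, 3837 without parental control 2 and parental Acetalax 3, and 79 to 811 with 1 library left out. The same libraries gave 5280 and 967 to 2615 for the parental response (1639 in all 12), and 6763 and 541 to 2420 for the CE response (1436). With the replicate number as a block within each kind of cell, the counts were 3, 438 and 161, and BCL6, ADAMTS1 and FHL2 kept their calls. Without a low-count filter they were 132 for the difference and 896 for the CE response. DESeq2 gave 1082, 2780 and 2877. With limma on log2(TPM + 1) the difference was called for 481 genes, and the CE response for 1977, of which 334 rose and 1643 fell, against 648 and 788 with edgeR. The parental split was 573 and 1378 there, and 513 and 1098 with log2(TPM + 0.1), where the CE split was 301 and 1409, that of the difference 67 and 155, and the median CE response of all genes was -0.11. These limma fits had no TMM or RLE scaling. TMM factors were 0.964 to 0.968 in CE controls and 0.899 to 0.911 in CE Acetalax libraries. The part of scaling in the limma splits was not tested. An adjusted p of 0.01 left 50 genes for the difference and a 1.5-fold threshold in the test left 21 (16 more positive and 5 more negative). Alternatives chosen after seeing the data gave 3147, 5902 and 5823 with a term for the 2 libraries, and 4125 with DESeq2, 3383 with limma (1231 and 2152) and 3932 with RLE scaling for the difference without them. RLE scaling, a minimum count of 50 and all 24 libraries in the fit kept the 3 counts within 1.5 times.

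Signs turned only for named genes that were not called in 12 libraries. The difference for IRF1 was -0.11 with 12 libraries, 0.39 without the 2 libraries, and 0.40, 0.37 and 0.40 there with DESeq2, limma and RLE scaling. For BBC3 it was 0.10, and turned to -0.044 with the block, -0.14 and -0.19 with limma at the 2 pseudocounts, and -0.0053 with the added term. With 1 library left out the difference ran from -0.42 to 0.24 for IRF1, -0.14 to 0.47 for BBC3, -0.16 to 0.68 for PGK1, -0.56 to 0.17 for UTP4, -0.055 to 0.88 for BUB1, -0.26 to 1.03 for CDK1, -0.083 to 0.83 for CDT1, -0.23 to 1.16 for PCNA, -0.36 to 1.32 for RRM2, -0.26 to 1.48 for CCNE2 and -0.0084 to 0.49 for NPM1. From BUB1 to NPM1 the lowest value came without parental control 2 and the highest without parental Acetalax 3. The cause was not tested. Depth was like in all groups, but parental groups have 2 libraries each once the 2 are removed, so their spread rests on few libraries. Low genes, such as C1orf116 and AHRR in CE cells, rest on few reads.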

Other observations

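Without parental control 2 and parental Acetalax 3, lists that had no call with 12 libraries had members called for the difference of responses. PCNA and DDIT3, which mark those libraries, belong to the lists of DNA replication and mitosis and of the integrated stress response. The counts of these 2 lists are thus not independent of which libraries were removed. Of 29 genes of DNA replication and mitosis, 21 were more positive and 0 more negative in CE cells (all genes: 9.02% and 10.3%), with a median difference of 0.29 against 0.01 for all genes. In parental cells 17 of the 29 fell and 0 rose (all genes: 12.3% and 14.3%), and in CE cells 14 rose and 2 fell (all genes: 17.7% and 16.4%). CCNA2, the S and G2 phase cyclin, went from a mean of 18.6 to 11.2 TPM in parental cells and from 112 to 120 TPM in CE cells (difference 0.88, adjusted p = 2.05e-06 by edgeR), and RRM2, a subunit of ribonucleotide reductase, gave 0.64 (adjusted p = 2.4e-05). With 12 libraries edgeR, DESeq2 and limma called 0 of the 29 (all genes: 1.28%, 6.32% and 2.48%). An unadjusted p under 0.05 in edgeR was reached by 0 (all genes: 12.5%). PCNA was at 337 and 348 TPM in the 2 removed libraries, above the other parental libraries, and its difference was 0.34 with them (adjusted p = 0.96) and 0.60 without them (adjusted p = 4.9e-05).

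Of 20 p53 targets, 12 were more positive and 0 more negative in CE cells in the 10 libraries (all genes: 9.02% and 10.3%), with a median difference of 0.31. CDKN1A, the p21 inhibitor of cyclin-dependent kinases, rose in CE cells from a mean of 46 to 65.3 TPM and was at 163 and 138 TPM in parental cells (difference 0.81, adjusted p = 1.32e-05). PLK2, a stress-induced kinase, gave 1.57 (adjusted p = 7.23e-06). Of 14 ID proteins and BMP feedback genes, 8 were more positive and 0 more negative (all genes: 9.02% and 10.3%), with a median of 0.46. HES1, a NOTCH and BMP target, rose in CE cells from 35.6 to 66.2 TPM with 10.2 and 9.24 TPM in parental cells (difference 1.07, adjusted p = 0.000106). ID4, which blocks basic helix-loop-helix factors, gave 1.71 (adjusted p = 0.000441), from parental levels under 1 TPM. Of 26 genes of the integrated stress response, 8 were more positive and 2 more negative (all genes: 9.02% and 10.3%). Its largest named member, CHAC1, which degrades glutathione, fell from 57.9 to 19.3 TPM in parental cells and rose from 33 to 60.5 TPM in CE cells (difference 2.52, adjusted p = 1.55e-05), while with 12 libraries the difference was 1.13 (adjusted p = 0.702). These values rest on 2 libraries in each parental group.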
